A study of Homo sapiens with 2 samples.

Results

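The cells described here are the HepaRG cells with the highest share of RNA from 36 genes of chromosome 2. They were chosen by their readout. A barcode entered with 500 or more genes, 4000 or more unique molecular identifiers (UMIs, one per captured RNA molecule) and no more than 25% of UMIs from mitochondrial (MT-) genes. The UMIs of the 36 marker genes were then taken as a percentage of a cell's gene UMIs without MT- genes. The top 6% of each library, called members here, were compared with the cells from the 25th to the 75th percentile, called middle cells. There were 264 members among 4390 kept cells in library 1 and 289 among 4811 in library 2, so 553 of 9201 in all, against 2195 and 2406 middle cells. Tests and counts of called genes below use genes outside the 36 markers only, and values of the markers are given as a description.

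The study profiled stress responses to chemicals in a human liver cell model. HepaRG is an established line from a human liver tumour, supplied terminally differentiated and labelled as hepatocytes. Both libraries hold vehicle cells only, kept 7 days in culture and then 24 h in 0.1% dimethyl sulfoxide (DMSO), and no chemical-treated cells were analysed here. Cells were released with trypsin and collagenase in the presence of the transcription blocker actinomycin D and the translation blocker anisomycin, then fixed, with 10000 cells loaded per library for droplet 3′ sequencing. Both libraries carry the same biological replicate number. The p-values therefore describe only how differences between groups of cells vary between these libraries, and that variation may be technical.

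The genes of a chromosome have little in common by function, but each gene's RNA output can follow the number and activity of the chromosome copies that carry it. Neighbouring genes also share chromatin, so RNA levels can move together over stretches of a chromosome. Protein complexes are built from subunits whose genes lie on different chromosomes, which gives each chromosome 2 subunit partners elsewhere in the genome. The files hold RNA only, and the DNA of the cells was not measured.

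The markers themselves are described without a test, since they chose the cells. Their summed share had a median of 1.84% in the middle cells and 2.64% in the members of library 1, and of 1.85% and 2.62% in library 2. All 36 were above the middle cells in both libraries, with a median fold of 1.40 in each. The smallest fold was that of NDUFS1, a subunit of respiratory complex I, in library 1 (1.20) and that of MAT2A, which makes S-adenosylmethionine, in library 2 (1.20). The largest was that of COPS8, a subunit of the COP9 signalosome, at 2.25 and 1.95. Of these UMIs, 40.9% came from only 5 genes of the protein synthesis machinery, the ribosomal protein genes RPL31, RPL37A, RPS7 and RPS27A and the elongation factor gene EEF1B2. The choice therefore also followed ribosomal protein RNA. Over all kept cells the marker share correlated with the share of ribosomal protein genes outside chromosome 2 (Spearman's rho 0.50 over 4390 cells and 0.47 over 4811). With the share of all other chromosome 2 genes it did not move together over the whole range (rho 0.015 and 0.011). That share ran against the share of ribosomal protein genes outside chromosome 2 (rho -0.55 and -0.53). These shares come from the same cells and share a denominator. For the markers without ribosomal protein genes and EEF1B2, against other chromosome 2 genes in a total without ribosomal protein genes, rho was 0.23 and 0.20. Ribosomal protein genes outside chromosome 2 made up 15.0% of UMIs in the members against 14.2% in the middle cells of library 1, and 15.2% against 14.3% in library 2.

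Chromosome 2 genes outside the marker list took a larger share of RNA in the members. They gave 6.71% of the UMIs without marker and MT- genes in the median member of library 1 against 4.86% in the median middle cell, and 6.54% against 4.81% in library 2. Members stood 1.38-fold and 1.36-fold above middle cells (mean 1.37 ± 0.014, SD, n = 2 libraries). The other bands of cells did not follow the marker share. The lowest 25% of cells had 5.01% and 5.00%, slightly above the middle cells in both libraries. The cells between the 75th and the 94th percentile had 4.80% and 4.81%. The median of the top 6% was the highest of all bands in both libraries. The band from the 75th to the 94th percentile was mixed, with an upper quartile, without ribosomal protein genes in the total, of 7.11% and 6.49% against 5.88% and 5.89% in the middle cells. Short arm genes rose 1.38-fold and 1.35-fold and long arm genes 1.39-fold and 1.34-fold. With 2 libraries no test of this share was made. The members were not the deepest cells: their median was 17409.5 UMIs against 18339 in the middle cells of library 1, and 9625 against 10758.5 in library 2. Their median MT- share was 9.25% against 8.41%, and 9.37% against 8.71%.

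Cells fell into 2 separate groups by this held-out share. With ribosomal protein genes also left out of the total, a setting added after the data were seen, the commonest 0.2-point bin began at 5.6% in library 1, with 905 cells. The bin beginning at 7.0% held only 14 cells, and a second peak followed at 8.0% with 94 cells. In library 2 the peaks began at 5.4% (892 cells) and 7.8% (80 cells), with 27 cells in the bin between them that began at 7.2%. A cut at 7%, set after seeing this valley, put 517 of 4390 cells on the upper side in library 1 (11.8%, exact Clopper-Pearson 95% interval 10.8 to 12.8) and 505 of 4811 in library 2 (10.5%, 9.64 to 11.4). The intervals cover counting error only. Within 0.4 percentage points of the cut lay 80 cells in library 1 and 135 in the shallower library 2. Cells on the upper side are called raised cells below.

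**Figure D1:**
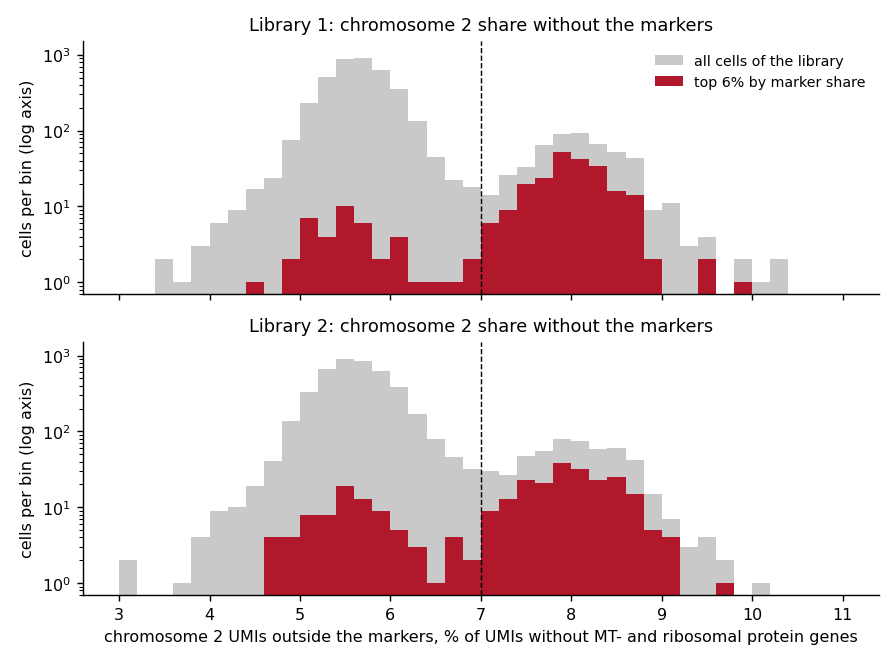
Number of cells (log axis) in each 0.2-point bin of the share of UMIs from chromosome 2 genes outside the markers, in % of UMIs without MT- and ribosomal protein genes, for each library. Grey bars are all kept cells, red bars the members, and the dashed line is the 7% cut; both libraries have 2 peaks, and 84.5% of the members of library 1 and 72.3% of those of library 2 lie above the cut.

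The name given to these cells thus held for most members and not for all. Of the members, 84.5% were raised cells in library 1 and 72.3% in library 2, and the rest sat in the lower peak. Conversely, members were only 43.1% and 41.4% of the raised cells. In library 1 another 210 raised cells lay between the 75th and the 94th percentile of the marker share, 66 among the middle cells and 18 in the lowest 25%; in library 2 these were 190, 95 and 11. The comparison of members with middle cells therefore sets a group of mostly raised cells against a group that holds some. The top 6% boundary ran through the raised cells. Of the 20 cells just outside it, 15 in library 1 and 12 in library 2 were raised, and of the 20 cells just inside it, 15 and 10 were; the boundary lay at a marker share of 2.446% in library 1 and between 2.436% and 2.438% in library 2. Because the 7% cut used no marker, the markers could be read against it. All 36 were higher in raised cells than in the other cells of both libraries, by a median log2 ratio of 0.43 and 0.44. PTMA, which codes for the small nuclear protein prothymosin alpha and held 15.5% of the marker UMIs, moved least (0.10 and 0.052), and COPS8 moved most (1.12 and 1.06).

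Raised cells were raised on both arms. The short arm share was 3.29% against 2.35% in the other cells of library 1 and 3.28% against 2.34% in library 2. The long arm share was 4.78% against 3.28%, and 4.77% against 3.27%. In 499 of 517 raised cells of library 1 and 474 of 505 of library 2, each arm by itself lay above the 95th percentile of the other cells. These cells were defined by the sum of both arms, so the values describe them and test nothing.

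Gene by gene, the members carried more RNA from most of the well-expressed genes of chromosome 2. The UMIs were summed per library over 4 bands of the marker share (lowest 25%, middle, 75th to 94th percentile, members) and fitted with edgeR's quasi-likelihood test with the library as a block, without the markers and MT- genes. A gene was called at a Benjamini-Hochberg adjusted p below 0.05. Of 17486 genes tested, 1834 were higher in members, a background of 10.5%, and 1352 were lower, 7.73%. On chromosome 2, 634 of 1167 tested genes were higher (54.3%) and 22 were lower (1.89%), with a median log2 fold change of 0.44. On all other chromosomes together 1200 of 16319 genes were higher (7.35%). Scaling by library totals in place of TMM, the trimmed mean of M-values, turned the split over all genes to 1253 higher and 2369 lower. On chromosome 2 it left 574 genes higher. Members were compared with cells of other clusters as well as of their own. When the top 6% and the middle cells were instead ranked within each expression cluster of each library, 297 of 1171 chromosome 2 genes were called higher (25.4%), against 7.68% of all genes tested in that comparison, and the median log2 fold change was 0.20.

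No other chromosome stood near chromosome 2. The medians of the other 22 chromosomes (1 to 22 and X, without 2) lay between -0.068 and 0.00087 on the log2 scale of the fit, and their percentages of genes called higher between 5.34% and 9.78%. As plain ratios of CPM + 1 (UMIs of a gene per 1000000) the chromosome 2 median was 0.34 in library 1 and 0.30 in library 2, and the median over all other chromosomes was -0.11 and -0.10. CPM values carry no TMM scaling, so a gene with a small rise in the fit can have a slightly lower CPM in the members.

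**Figure D2:**
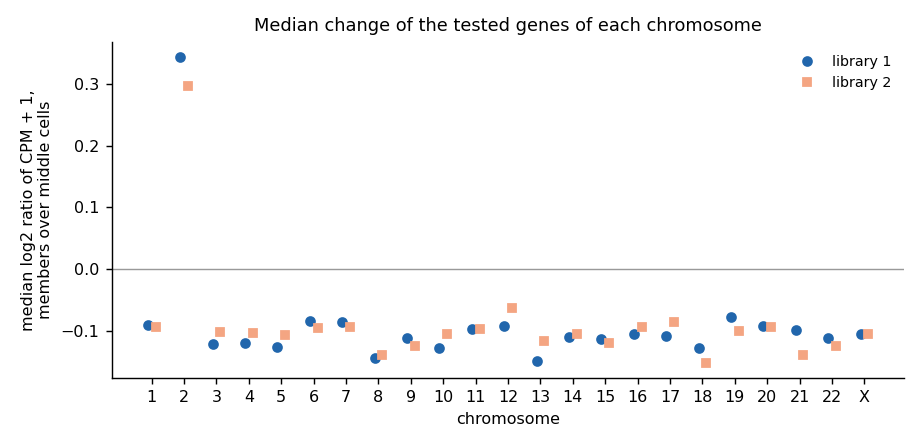
Median over the tested genes of each chromosome of the log2 ratio of CPM + 1 in members over middle cells, without the 36 markers, in library 1 (circles) and library 2 (squares). Chromosome 2 lies at 0.34 and 0.30, and every other chromosome lies below 0 in both libraries on this scale, which has no TMM scaling.

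Among the 472 chromosome 2 genes at 30 CPM or more, 436 were called higher (92.4%), 1 lower and 35 neither. Of the 5981 genes at that level on other chromosomes, 888 were called higher (14.8%). The median log2 fold change of the 472 was 0.48, a 1.39-fold rise, and the central 50% lay between 0.39 and 0.59. In both libraries at once 449 of the 472 had a CPM ratio above 0 on the log2 scale. The rise ran along the whole chromosome. In 18 windows of consecutive genes (25 each, with 47 in the last) the median lay between 0.41 and 0.53, and within single libraries between 0.31 and 0.46 in library 1 and 0.31 and 0.44 in library 2.

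**Figure D3:**
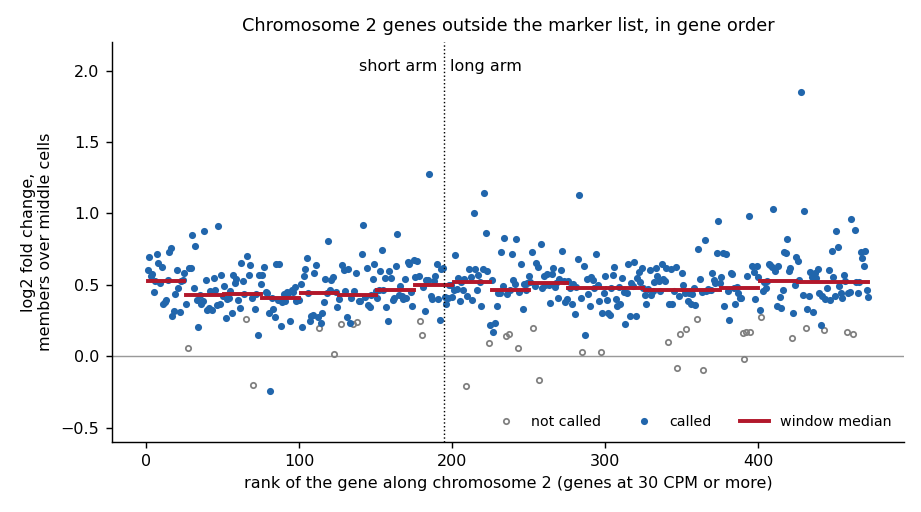
Log2 fold change of members over middle cells for the 472 chromosome 2 genes at 30 CPM or more, by rank along the chromosome, with filled points for genes called and open points for genes not called. Red lines are window medians, which run from 0.41 to 0.53 across both arms, and the dotted line divides short and long arm.

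The arms gave like values. The short arm had 263 of 453 tested genes higher, with a median log2 fold change of 0.45, and the long arm 371 of 714, with a median of 0.44. Because both arms hold markers, cells were also chosen on 1 arm and read on the other. In the top 6% by the 17 short arm markers, 357 of 715 long arm genes were higher (49.9%), with a median of 0.40, where the background over all genes was 11.3%. Their long arm share was 1.36-fold and 1.33-fold that of the middle cells. In the top 6% by the 19 long arm markers, 193 of 454 short arm genes were higher (42.5%), with a median of 0.32 and a background of 8.63%. Their short arm share was 1.28-fold that of the middle cells in library 1 and 1.11-fold in library 2, so the median cell chosen in this way moved less in the shallower library. The long arm markers include RPL31, RPL37A and EEF1B2; without the ribosomal protein genes and EEF1B2 the count fell to 122 of 459. The short arm markers include RPS7 and RPS27A, and without them 334 of 721 long arm genes were higher.

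The chromosome 2 genes with the largest rise were picked by that rise, so they stand above the general shift of the chromosome by choice. SERPINE2, a secreted inhibitor of serine proteases at chr2:223975112-224039319 (GRCh38, GENCODE 29), had 68.4 CPM in the members and 18.3 in the middle cells of library 1, and 61.9 and 21.1 in library 2. Its members were above the middle cells in both libraries, with a log2 fold change of 1.85 ± 0.10 (SE; edgeR adjusted p = 1.2e-20). ATOH8, a helix-loop-helix transcription factor, had 55.7 against 21.1 CPM and 42.0 against 23.4 CPM (1.28 ± 0.11). IL1R2, a decoy receptor for interleukin-1, had 87.8 against 39.3 and 74.5 against 40.0 CPM (1.15 ± 0.081). Its signalling relative IL1R1 had 207.5 against 111.1 and 163.8 against 109.6 CPM (0.86 ± 0.057). IL1R2 and IL1R1 are among the leading genes of cluster 8, described below, which held more of the members than of the middle cells. KYNU, the kynureninase of tryptophan breakdown, had 111.9 against 53.0 and 101.2 against 51.4 CPM (1.13 ± 0.068). For each of these 5 genes the 2 member values lay above both middle values.

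IGFBP2, a binding protein for insulin-like growth factors at chr2:216632828-216664436, had 234.2 against 110.7 and 220.3 against 130.0 CPM (log2 fold change 1.03 ± 0.054, edgeR adjusted p = 1.2e-20). GPC1, a heparan sulphate proteoglycan of the cell surface, had 322.9 against 164.9 and 280.6 against 168.9 CPM (0.96 ± 0.047). The exchange factor gene DOCK10 rose by 1.02 ± 0.090 and the transcription regulator genes AFF3 and KLF7 by 1.00 ± 0.076 and 0.98 ± 0.090. Ranked within clusters these changes were 0.30, 0.31 and 0.26, and that of KLF7 was not called (adjusted p = 0.0653). PPP3R1, the regulatory subunit of calcineurin, rose by 0.92 ± 0.079. Cell division genes were also among the 12 largest rises. SGO2, which protects sister chromatid cohesion, had 185.0 against 111.2 and 207.0 against 102.1 CPM (0.95 ± 0.059), and CENPA, the centromere histone, had 109.1 against 63.6 and 112.3 against 61.4 CPM (0.91 ± 0.077). CENPA is among the leading genes of cluster 1, a cycling-like cluster described below that held more of the members than of the middle cells. The part of cell composition in the values of SGO2 and CENPA was not tested. All 12 were called higher, with adjusted p at or below 8.3e-13 by edgeR.

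One well-expressed chromosome 2 gene went the other way. CYP1B1, a cytochrome P450 of the aryl hydrocarbon response, had 96.7 CPM in the members against 126.6 in the middle cells of library 1 and 100.4 against 119.1 in library 2. Both member values lay below both middle values, and the gene fell by 0.24 ± 0.067 on the log2 scale (edgeR adjusted p = 0.0069). The fall was not firm. With equal marker weights in choosing the cells the log2 fold change of CYP1B1 was 0.033 (edgeR adjusted p = 0.77). The call was also lost on cells thinned to 4000 UMIs (adjusted p = 0.0561), in the top 3% (0.165), in the top 10% (0.142) and with DESeq2 (0.0722), and it held within clusters, at -0.44.

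Most stress, signalling and growth genes of chromosome 2 rose. Of 29 in the list, all were tested, 26 were called higher and none lower, with a median log2 fold change of 0.54, beside 0.44 over the chromosome and -0.0087 over all genes tested. Over chromosome 2, 54.3% of all tested genes and 92.4% of those at 30 CPM or more were called higher. The list's count is near the latter share, and the median of chromosome 2 genes at that level was 0.48. Ranked within clusters 19 of 29 were higher, with a median of 0.26. The paired mitochondrial chaperone genes led by level. HSPD1 had 885.6 CPM in the members against 687.8 in the middle cells of library 1 and 871.0 against 664.4 in library 2 (0.47 ± 0.030). HSPE1, its co-chaperone, had 714.9 against 496.5 and 718.2 against 521.8 CPM (0.58 ± 0.033). NFE2L2, the transcription factor of the oxidative stress response, had 192.5 against 133.0 and 165.7 against 135.1 CPM (0.53 ± 0.054), and CUL3, part of the ligase that degrades it, rose by 0.43 ± 0.056. EIF2AK3, the kinase of the unfolded protein response also called PERK, had 45.4 against 30.9 and 45.4 against 32.2 CPM (0.62 ± 0.098). EIF2AK2, the kinase that senses double-stranded RNA, rose by 0.57 ± 0.062. TP53I3, a target of p53, had 287.6 against 163.1 and 273.0 against 163.8 CPM (0.87 ± 0.046). The tubulin gene TUBA4A rose by 0.82 ± 0.040. CASP8 (0.46), CFLAR (0.72), IDH1 (0.59), RRM2 (0.73) and the mismatch repair gene MSH6 (0.29) were also higher. CREB1, TNS1 and KLF11 did not pass the test, at 0.17 ± 0.085, 0.35 ± 0.13 and 0.40 ± 0.17.

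Liver, matrix and metabolism genes of chromosome 2 rose in part. Of 32 in the list 29 were tested, 16 were called higher and 3 lower, and the median log2 fold change was 0.27, or 0.34 without XDH, which had no UMI in the members. Its count is near the 54.3% called higher over chromosome 2. Ranked within clusters 5 of 29 were higher and 3 lower, with a median of 0.079. FN1, which codes for fibronectin, had 1214.8 CPM in the members against 802.5 in the middle cells of library 1 and 1112.7 against 807.3 in library 2 (0.62 ± 0.030, edgeR adjusted p = 6e-22). HADHA and HADHB, the subunits of the mitochondrial trifunctional protein of fatty acid oxidation, rose together by 0.55 ± 0.039 and 0.46 ± 0.057. HADHA had 369.5 against 272.6 and 365.8 against 262.0 CPM. The integrin genes ITGA6 and ITGAV rose by 0.74 ± 0.11 and 0.50 ± 0.052. CYP27A1, a sterol hydroxylase of bile acid synthesis, rose by 0.47 ± 0.10, and KHK, which phosphorylates fructose, by 0.51 ± 0.16. UGT1A6 and UGT1A1 were called higher (0.94 ± 0.18 and 0.78 ± 0.26), but they share their 3′ exons, so 3′ reads cannot be told apart between them.

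Some hepatocyte and matrix genes of chromosome 2 stood apart from the rise. APOB, the protein of very-low-density lipoprotein, had 420.3 against 380.7 and 424.6 against 401.2 CPM and was called higher by only 0.20 ± 0.036 (edgeR adjusted p = 1.5e-05). Against all cells below the top 6% APOB was lower (log2 fold change -0.24, adjusted p = 1.91e-05). The hepatocyte-like cluster described below made up 3.23% and 4.57% of the middle cells and 7.86% and 8.92% of all kept cells. CPS1, the entry enzyme of the urea cycle, had 18.7 against 18.8 and 14.5 against 19.2 CPM and did not pass the test (-0.060 ± 0.14). COL3A1, a fibrillar collagen, had 2.34 against 21.8 and 9.93 against 19.7 CPM and was lower (-1.90 ± 0.26). XDH, the xanthine oxidoreductase gene, had 0 UMIs in the members of both libraries, which allows up to 0.70 and 1.15 CPM, against 1.31 and 1.63 CPM in the middle cells. The whole hepatocyte marker list moved with these values: its sum was 896.4 and 885.9 CPM in the members against 1420.2 and 1924.8 in the middle cells. The median cell differed little, with 2.48 UMIs of the list per 10000 in the members against 2.41 in the middle cells of library 1 and 2.65 against 2.85 in library 2. The mesenchymal list summed to 132.1 and 152.7 against 270.8 and 271.1 CPM. The part of cell composition in the values of these genes was not tested.

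In the comparison of members with middle cells, partners of the marker genes on other chromosomes had list medians nearer to 0 than chromosome 2. How many were called depended on how the cells were ranked. Of the 8 other SF3 splicing factor genes, whose chromosome 2 members SF3B1 and SF3B6 are markers, none was called (median log2 fold change 0.0092). Of 31 subunits of respiratory complex I, the enzyme of the markers NDUFS1 and NDUFB3, 4 were higher and 1 lower (0.045). Of 9 cytochrome c oxidase genes, partners of COX5B, none was higher and 1 was lower (0.038). COX4I1 was that gene, with 630.4 against 763.0 and 719.4 against 809.7 CPM (-0.14 ± 0.032). Its call was lost within clusters (-0.033), without the ribosomal protein markers and EEF1B2 (-0.020), on thinned cells (-0.048) and without the library block (edgeR adjusted p = 0.0712). Of 7 COP9 signalosome genes 1 was higher (0.012): COPS6, with 170.5 against 159.6 and 179.1 against 164.3 CPM, whose call was lost with library totals (edgeR adjusted p = 0.123), with equal marker weights and without the ribosomal protein markers and EEF1B2. Each of these medians lies below the chromosome 2 median of 0.44, while 14.8% of genes at 30 CPM or more on other chromosomes were called higher. Ranked within clusters, 17 of the 31 complex I genes (median 0.14) and 7 of the 9 cytochrome c oxidase genes (0.12) were higher and none lower, beside a chromosome 2 median of 0.20. With equal marker weights none of these was higher, and 6 and 3 were lower. Without the ribosomal protein markers and EEF1B2, 4 of the 9 cytochrome c oxidase genes were higher.

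The other partner lists had medians between 0.054 and 0.18. The CCT chaperonin, which folds actin and tubulin, had 3 of 6 tested genes higher with a median of 0.13, the largest being CCT5 (281.9 against 271.8 and 318.1 against 258.6 CPM, 0.25 ± 0.045). The regulatory particle of the proteasome had 7 of 16 higher, with a median of 0.13. Of its genes PSMD8 had 245.2 against 219.5 and 256.2 against 222.9 CPM (0.27 ± 0.044). Of 6 genes of the actin-nucleating Arp2/3 complex, ARPC1A (0.20 ± 0.047) and ARPC1B (0.16 ± 0.040) were higher. Close relatives of single markers, such as the 14-3-3 genes beside YWHAQ, were higher for 4 of 23 and lower for 1, with a median of 0.054, a share near the 14.8% given above. Within clusters 12 of the 23 were higher. Among them YWHAH had 149.2 against 128.9 and 143.6 against 128.8 CPM (0.28 ± 0.056), while YWHAZ (-0.025 ± 0.036) did not pass the test. With library totals as the scaling the proteasome count fell to 3 higher and 1 lower, the CCT count to 2, and the Arp2/3 count to 0 higher and 1 lower. Without the ribosomal protein markers and EEF1B2 no Arp2/3 gene was called and 3 proteasome genes were higher.

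Translation genes were higher in the members, and how many were called depended on how the cells were ranked. Of 79 tested cytosolic ribosomal protein genes outside chromosome 2, 74 were higher and none lower, with a median log2 fold change of 0.17. RPS19, the first of them by level, had 5513.4 against 5096.5 and 5485.4 against 5176.4 CPM (0.19 ± 0.021). Elongation factor 1 genes were higher for 3 of 4, among them EEF1A1 (0.18 ± 0.022). Beside these counts, 14.8% of genes at 30 CPM or more on other chromosomes were called higher. With ranking within clusters, all 79 ribosomal protein genes (median 0.28) and all 4 elongation factor genes (0.28) were higher. Both medians lie above the chromosome 2 median of 0.20 in that setting. When the 4 ribosomal protein markers and EEF1B2 were left out of the choice of cells, 1 of the 79 ribosomal protein genes was higher and 2 were lower, and none of the 4 elongation factor genes was called. The chromosome 2 count under the same change was 505 of 1180 higher, with a median of 0.31. Ribosomal protein genes have many processed copies in the genome, and how the counting treated such reads is not given in the sources used here.

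**Figure D4:**
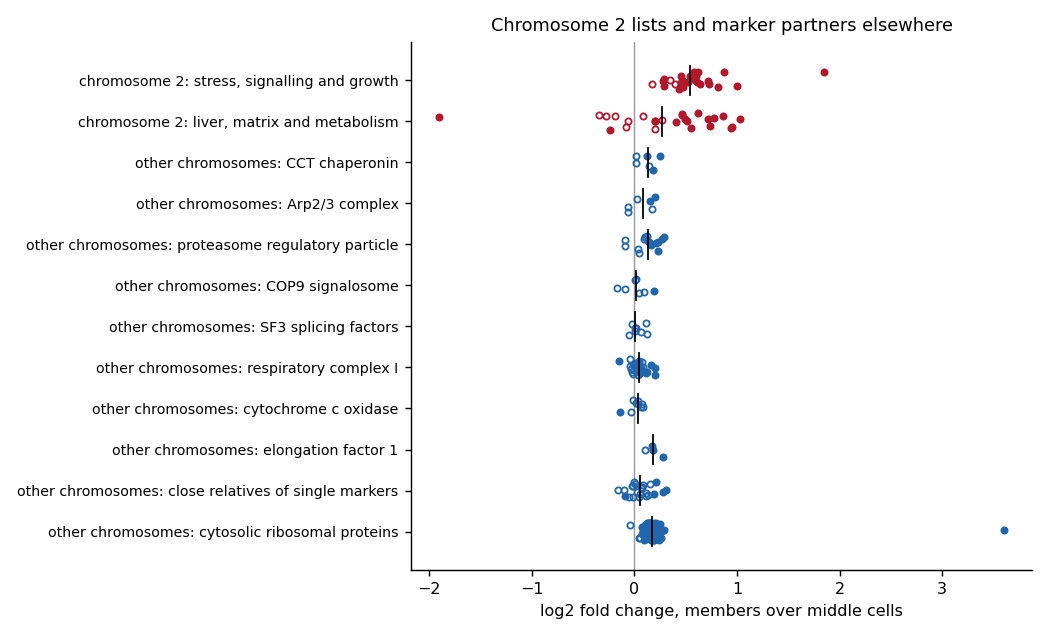
Log2 fold change of members over middle cells for genes of each list, red for chromosome 2 lists and blue for partner lists on other chromosomes, with filled points for genes called, open points for genes not called and black bars for list medians over all tested genes. Genes under 1 CPM are not drawn; the chromosome 2 medians are 0.54 and 0.27, and partner list medians run from 0.0092 to 0.18. The ribosomal protein point far to the right is RPL10L.

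Members came mainly from 4 of the 10 expression clusters. The clusters were made without chromosome 2, MT-, ribosomal protein and list genes, so the rise did not define them. Clusters 1, 4 and 5 were cycling-like, with 9, 10 and 11 of 17 proliferation markers raised, and cluster 3 was hepatocyte-like, with 13 of 17 hepatocyte markers raised. Cluster 7 also had 11 of 17 proliferation markers raised. It was not named, since it had 4 of 12 mesenchymal markers raised too, and it is not counted as cycling-like here. Cluster 8 was not named, since it had 5 of 17 hepatocyte markers raised; its leading genes were SLC47A2, HP, IL1R2, NQO1 and MDGA2. Cluster 8 held 92 of the 264 members of library 1 (34.8%, exact 95% interval 29.1 to 40.9) and 83 of the 289 members of library 2 (28.7%, 23.6 to 34.3), against 2.96% and 3.41% of the middle cells. Clusters 1, 4 and 5 held another 154 and 178 members, and all other clusters 18 and 28. In library 1, clusters 1, 4 and 5 made up 19.3%, 12.9% and 26.1% of the members against 10.4%, 6.97% and 19.4% of the middle cells. In library 2 these shares were 28.7%, 12.1% and 20.8% against 10.2%, 6.98% and 20.1%. The hepatocyte-like cluster held no member in either library, with exact 95% upper limits of 1.39% and 1.27% of the members.

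Raised cells filled cluster 8 and were a minority elsewhere. In cluster 8 they were 290 of 319 cells in library 1 (90.9%) and 280 of 303 in library 2 (92.4%). In the cycling-like clusters they were 10.6% and 12.3% (cluster 1), 19.4% and 16.1% (cluster 4) and 12.5% and 9.79% (cluster 5). The hepatocyte-like cluster had 3.77% and 3.03%, and clusters 0, 2, 6 and 7 had at most 1.14%. Cluster 7, where proliferation markers were raised as well, had 0.61% and 0.28%. Members of the cycling-like clusters had a held-out share 1.33-fold to 1.40-fold that of middle cells of the same cluster and library. In cluster 8 the ratio was 1.01 and 0.987, since its middle cells were raised as well (7.99% and 8.05%, against 5.54% to 5.79% in the middle cells of clusters 1, 4 and 5). Leaving out cluster 8, an alternative added after the data were seen, kept 539 of 1163 chromosome 2 genes higher with a median log2 fold change of 0.42.

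**Figure D5:**
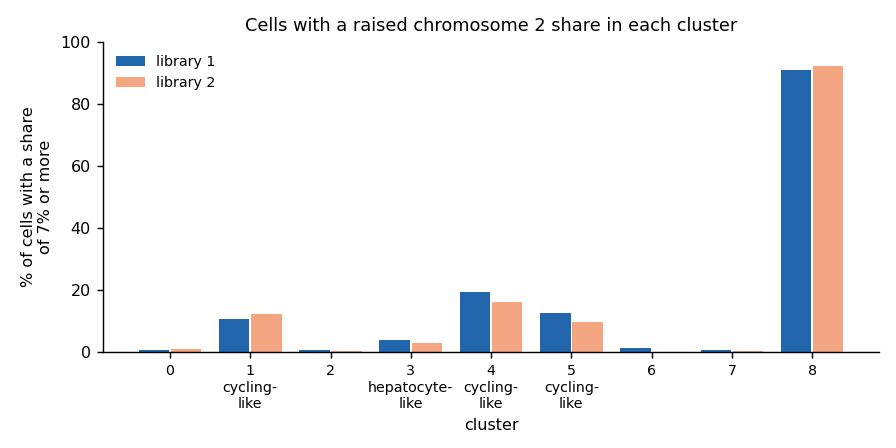
Percentage of cells with a held-out chromosome 2 share of 7% or more in each expression cluster, for library 1 (blue) and library 2 (orange); cluster 9, with 32 cells, is left out. Cluster 8 stands above 90% in both libraries, the 3 cycling-like clusters lie between 9.79% and 19.4%, and the hepatocyte-like cluster is near 3%.

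Genes of other chromosomes also separated members from middle cells. SLC47A2, a transporter of organic cations at chr17:19678288-19718979, had 108.2 against 15.0 CPM in library 1 and 96.6 against 16.2 in library 2 (log2 fold change 2.82 ± 0.088, edgeR adjusted p = 1.9e-29). MDGA2, a cell-surface glycoprotein gene, had 118.5 against 23.2 and 102.3 against 24.5 CPM (2.32 ± 0.092). Both are among the leading genes of cluster 8. The aldo-keto reductase genes AKR1B10 (450.8 against 163.9 and 446.7 against 162.0 CPM, 1.55 ± 0.040) and AKR1C2 (737.6 against 283.6 and 693.4 against 271.2 CPM, 1.45 ± 0.035) rose too. AKR1C2 has near-identical neighbours, so its counts are uncertain. SFN, a 14-3-3 protein of epithelial cells, rose by 1.43 ± 0.063 and the interferon-induced gene IFI27 by 1.11 ± 0.077.

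Lower in the members were ROBO2, an axon guidance receptor (89.0 against 352.8 and 95.8 against 346.3 CPM, log2 fold change -1.85 ± 0.057), and THBS1, the matrix protein thrombospondin (30.4 against 103.3 and 28.3 against 94.9 CPM, -1.66 ± 0.10). The transcripts AC068633.1 (-3.94 ± 0.19), AL110292.1 (-3.27 ± 0.15), AC022140.1 (-1.86 ± 0.11) and AL035446.2 (-1.52 ± 0.12) fell as well. ROBO2 and AC068633.1 are among the leading genes of cluster 6, AC068633.1 also of cluster 7 and AC022140.1 of cluster 0, which together held 17 and 26 members. Clusters 6, 7 and 0 held 15.8%, 10.7% and 22.6% of the middle cells in library 1 and 15.7%, 9.93% and 21.2% in library 2. Ranked within clusters AC068633.1 changed by -0.26 and was not called (edgeR adjusted p = 0.0592), and AL110292.1, AC022140.1, AL035446.2, ROBO2 and THBS1 stayed lower by smaller values (-0.65, -0.81, -0.73, -0.46 and -0.82). SLC47A2 and MDGA2 were higher there by 1.45 and 1.14. In the members AL110292.1 had 5.62 CPM in library 1 and 21.0 in library 2, against 122.1 and 112.0 in the middle cells.

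Cell type markers moved with the members. The counts below stand beside 10.5% called higher and 7.73% called lower over all genes tested. In the summed counts none of 15 tested hepatocyte markers was higher and 8 were lower (median log2 fold change -0.73), though the median cell differed little, as given above. Raised cells had a median of 3.11 and 3.45 UMIs of this list per 10000 against 2.74 and 3.20 in the other cells. ALB, which codes for albumin, had 373.7 against 668.6 and 338.7 against 975.4 CPM (-1.06 ± 0.074), and TF, which codes for transferrin, had 3.98 against 17.9 and 4.58 against 27.1 CPM. AHSG, APOA2, CYP2E1 and CYP3A4 were among the hepatocyte markers under 1 CPM in the members of both libraries, so the label hepatocyte rests on part of its markers here. Of 10 tested mesenchymal markers 6 were lower, among them PDGFRB with 0.47 against 13.7 and 0.38 against 12.8 CPM, and only VIM was higher (6.56 against 2.50 and 6.87 against 2.50 CPM). Ranked within clusters 2 of the 10 were lower and none higher, with a median log2 fold change of -0.19 in place of -0.68, and ACTA2 and SPARC were not called. Proliferation markers were higher for 10 of 15 and lower for none, with a median of 0.32. Examples were CENPF (666.2 against 577.4 and 719.8 against 520.7 CPM) and TOP2A (659.9 against 595.8 and 686.2 against 532.6 CPM). The median member had 23.2 UMIs of this list per 10000 against 15.5 in the median middle cell of library 1. In library 2 it had 25.8 against 15.9. Raised cells did not share this rise over the other cells. In library 1 both medians rounded to 12, and in library 2 raised cells had 11.8 against 13.3. Of 5 tested biliary markers 3 were lower, among them the keratin gene KRT19 (364.8 against 751.2 and 361.2 against 772.1 CPM, -0.98 ± 0.035). Only SPP1 was higher (1.32 ± 0.14). Endothelial markers summed to 18.3 and 23.7 CPM and immune markers to 24.4 and 14.5 CPM in the members, and the T cell genes CD3D and CD3E and the leukocyte gene PTPRC were under 1 CPM. The part of these cell type differences in the count over all genes was not tested. Within the cycling-like clusters the members had the 1.33-fold to 1.40-fold held-out share given above.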

How the data were processed

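UMI counts of each gene in each barcode were deposited; the authors made them with Cell Ranger 7.0.0, per the file headers; STAR and GRCh38 are named in the submitters' processing notes. For the annotation release and intronic reads, the sources used here give no statement. The libraries held 85475317 and 57246647 UMIs in 4591 and 4998 barcodes, of which 10 barcodes were shared (6 after filtering, 0 among members). The 12 antibody features held 0 UMIs. Positions came from GENCODE 29, which matched 34616 of 36601 gene IDs (94.6%); arms were divided at 93 Mb. The members and gene lists were chosen with earlier results of these data known. No doublet caller was run, and ambient RNA was left in the counts.

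Counts were summed per library and band (8 sums, 5 coefficients, 3 residual degrees of freedom) and tested with edgeR 4.0.16 (TMM, filterByExpr, library as block) in R 4.3.3; every band of a library comes from the same suspension. Each SE is the log2 fold change over the square root of the F statistic. DESeq2 1.42.0 was an alternative. CPM are per 1000000 UMIs without markers and MT- genes. Clusters came from scanpy 1.11.5 (2000 variable genes, 30 components, 15 neighbours, Leiden resolution 0.5); a cluster was named when at least 50% of a list was raised and at most 25% of any other, a threshold set after seeing the clusters. Named genes were, at a mean of 30 CPM or more and with the same direction in both libraries, the 12 largest rises and up to 3 falls called on chromosome 2 and the 6 of each on other autosomes, and the 3 best expressed genes of each list; further list genes were named after their values were seen. The code was tested on simulated data. Some genes of the lists are not reported here by name.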

Additional observations from a re-analysis of the deposited data

How the results depend on the processing

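Chromosome 2 genes kept a median above 0 under every alternative run. Without the ribosomal protein markers and EEF1B2 the median log2 fold change was 0.313 and the ratio of the held-out share 1.29; for the other-arm comparisons the medians were 0.348 (long arm) and 0.205 (short arm, with 122 genes higher). Equal marker weights gave 0.50 and 1.42. Ranking within clusters gave 297 genes, 0.197 and 1.03, and 172 long arm (0.184) and 79 short arm genes (0.166); by construction it takes the top 6% of clusters with few raised cells too. Ranking on cells thinned to 4000 UMIs gave 0.366 and 1.34, a minimum of 8000 UMIs gave 1.38, and the top 10% gave 0.387 and 1.34. DESeq2 called 760 genes lower and library totals 2369, with a chromosome 2 median of 0.354 for the latter; no filter on low counts gave 0.325. Without cluster 8 the ratio was 1.35, and without ribosomal protein genes in the total 1.39, both chosen after seeing the data. Where not stated, the cause was not tested. Single libraries, as CPM ratios without TMM and without a test, gave 0.296 to 0.343 on chromosome 2, 0.262 to 0.295 for the long arm, 0.20 to 0.236 for the short arm, and ratios of 1.36 to 1.38. Without the replicate block 1616 genes were higher and 1186 lower, 617 of the higher ones on chromosome 2 (median 0.444), with 350 long arm (0.40) and 177 short arm genes (0.32). Library totals moved the median of all genes from -0.00872 to -0.0979. Over 79 named genes, 998 values kept their side of the threshold, 36 of them with the other sign and no call in either setting; 65 lost and 26 gained a call, and 16 changed sign with a call in either: CYP1B1 (0.0334), NDUFA4 (-0.114) and NDUFS5 (-0.132) with equal weights; SERPINA1 (0.0233), NPM1 (0.105), APOB (-0.0576), COX7C (0.0965) and HNRNPA2B1 (0.0919) within clusters; NPM1 (0.0146) and APOB (-0.237) against all other cells; and HLA-DRA (0.10), ARPC1B (-0.0629), EEF1A1 (-0.0576), RPS18 (-0.0261), COX7C (0.101) and HNRNPA2B1 (0.168) without the ribosomal protein markers and EEF1B2. Depth limits the members most in library 2, where 3 UMIs are 1.15 CPM.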

Other observations

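Within the cycling-like clusters, raised cells differed from the other cells of the same clusters in the genes that set members apart. These values are descriptive: the 7% cut and the genes were chosen after seeing these data. SLC47A2 had 98.5 CPM in 194 raised cells against 8.79 CPM in 1285 other cycling-like cells of library 1, and 117.5 against 9.98 CPM (202 and 1511 cells) in library 2. MDGA2 had 115.1 against 26.8 and 107.9 against 19.0 CPM, and AKR1B10 had 529.3 against 141.4 and 515.1 against 145.1 CPM. On chromosome 2, SERPINE2 had 77.9 against 17.9 and 67.1 against 17.7 CPM, KYNU 106.8 against 49.3 and 110.5 against 50.3 CPM, and IL1R2 54.6 against 19.6 and 64.0 against 23.8 CPM. NFE2L2 stood at 205.8 against 135.3 and 186.8 against 137.0 CPM. SERPINE2, KYNU, IL1R2 and NFE2L2 are part of the chromosome 2 share that defines raised cells, so the cut itself favours higher values of them. The 36 markers were all higher in these raised cells in both libraries (median log2 ratio 0.41 and 0.44). Raised cells of cluster 8 had 164.8 and 155.2 CPM of SLC47A2 and 170.9 and 177.6 CPM of MDGA2. The few cells of cluster 8 that were not raised (29 and 23) also carried these genes, with 96.1 and 46.9 CPM of SLC47A2 and 87.8 and 114.6 CPM of MDGA2. AKR1B10 stood at 585.1 and 187.5 CPM in them against 368.5 and 445.0 CPM in the raised cells of the cluster, and IL1R2 at 54.3 and 218.8 against 215.0 and 181.4 CPM, so the libraries differed in direction for both genes.

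RPL10L was the ribosomal protein gene farthest from its list. It had 6.56 CPM in the members against 0.61 in the middle cells of library 1 and 9.93 against 0.80 in library 2 (log2 fold change 3.60 ± 0.35, edgeR adjusted p = 2.1e-11). It lies on chromosome 14 (46651010 to 46651821), as does MDGA2 (46840092 to 47674954). RPL10L is a close copy of RPL10, so its counts are uncertain. It was named after its values were seen.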
